A study of Arabidopsis thaliana with 6 samples.

Results

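TIR-domain NLR genes encode intracellular immune receptors of plants, and 60 such genes of Arabidopsis thaliana were followed here in seedlings of the wild type and of the atr8 mutant. The 60 loci are receptors of the TIR, nucleotide-binding and leucine-rich repeat type together with shortened relatives that keep the TIR domain. Members were the genes named alone by a probe set in the platform annotation. This left 44 members, each with a single probe set, out of 13286 genes with a probe set of their own. Of the other 16 loci, 4 lay on 2 probe sets that list a pair of genes each, and 12 were not in the annotation table used, so these 16 were not analysed here.

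A receptor of this family senses a pathogen effector, or its action on a host protein, and assembles into a complex in which the TIR domains become an enzyme that cleaves NAD+. The small molecules so made bind the lipase-like protein EDS1 in complex with PAD4 or SAG101, and these complexes engage the helper NLRs of the ADR1 and NRG1 families, which act as calcium channels at the membrane. Immune output includes salicylic acid synthesis, transcription of defence genes and, in many cases, death of the infected cell. Many of the genes stand in clusters and differ strongly between accessions.

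The series asked about AtR8, a long non-coding RNA, in defence. Wild-type and atr8 mutant seedlings were hybridised to 3 arrays each, and both genotypes are labelled as the accession Wassilevskija (WS). Every seedling was 10 days old when it was kept for 6 h in water purged with air, which the labels call a hypoxic stress, and then recovered for 22 h on agar medium, so all 6 arrays share the stress and no unstressed seedlings were analysed here. The design text speaks of mutant lines in the plural without naming them, and the labels do not give the kind of mutation, the line behind each array, or whether seedlings were pooled. The arrays of a genotype are described as biological replicates. ATH1 probes were designed on the Columbia genome, and their match to the WS alleles of these genes was not tested.

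Array quality differed within the mutant. For actin, the signal of the 3′ probe set over that of the 5′ probe set was 28.9 on mutant replicate 2 and 19.6 on mutant replicate 3, against 2.13 on mutant replicate 1 and 2.17 to 2.66 in the wild type. For GAPDH this ratio was above the wild type, at 0.794 to 0.844, on every mutant array. It was 0.996 on mutant replicate 1, 1.75 on replicate 2 and 1.70 on replicate 3. Of the markers of green tissue, 5 of 10 listed genes were measured, that is, named alone by a probe set in the annotation. Their summed intensity ran from 71758 to 73239 in the wild type and from 36872 to 45187 in the mutant. Of the root-preferential markers 2 of 8 were measured, and their sum ran from 854 to 925 in the wild type and from 419 to 768 in the mutant. Both kinds of marker were thus present in the samples labelled as seedlings, and both sums stood lower on the mutant arrays. Of the green genes 4 of 5 lay below the wild type on all arrays, and of the root genes 1 of 2. Over all probe sets 11.0% were placed below in this way. The other root gene, EXPA18, read 723, 548 and 601 in the wild type and 587, 311 and 342 in the mutant. Its difference was −0.08 on mutant replicate 1 alone. In whole seedlings fewer cells of a type and less RNA per cell cannot be told apart. The part of array quality and of tissue makeup in the results below was not tested. For most members described, the difference on mutant replicate 1 alone is given too.

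Most members were dim. Intensities are on the linear scale of the deposited table, in which the median probe set of an array reads 192. The mean over the 6 arrays ran from 10.0 to 406 among the members, with a median of 58.9, against a median of 196 over all 22746 tested probe sets. On all 6 arrays, 33 of the 44 members stayed below the median of the array, and 31 fell under an intensity of 16 on at least 1 array. The median member read 65.2, 52.2 and 65.1 on wild-type replicates 1, 2 and 3, and 74.4, 77.6 and 63.4 on mutant replicates 1, 2 and 3. These medians overlap between the genotypes.

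**Figure D1:**
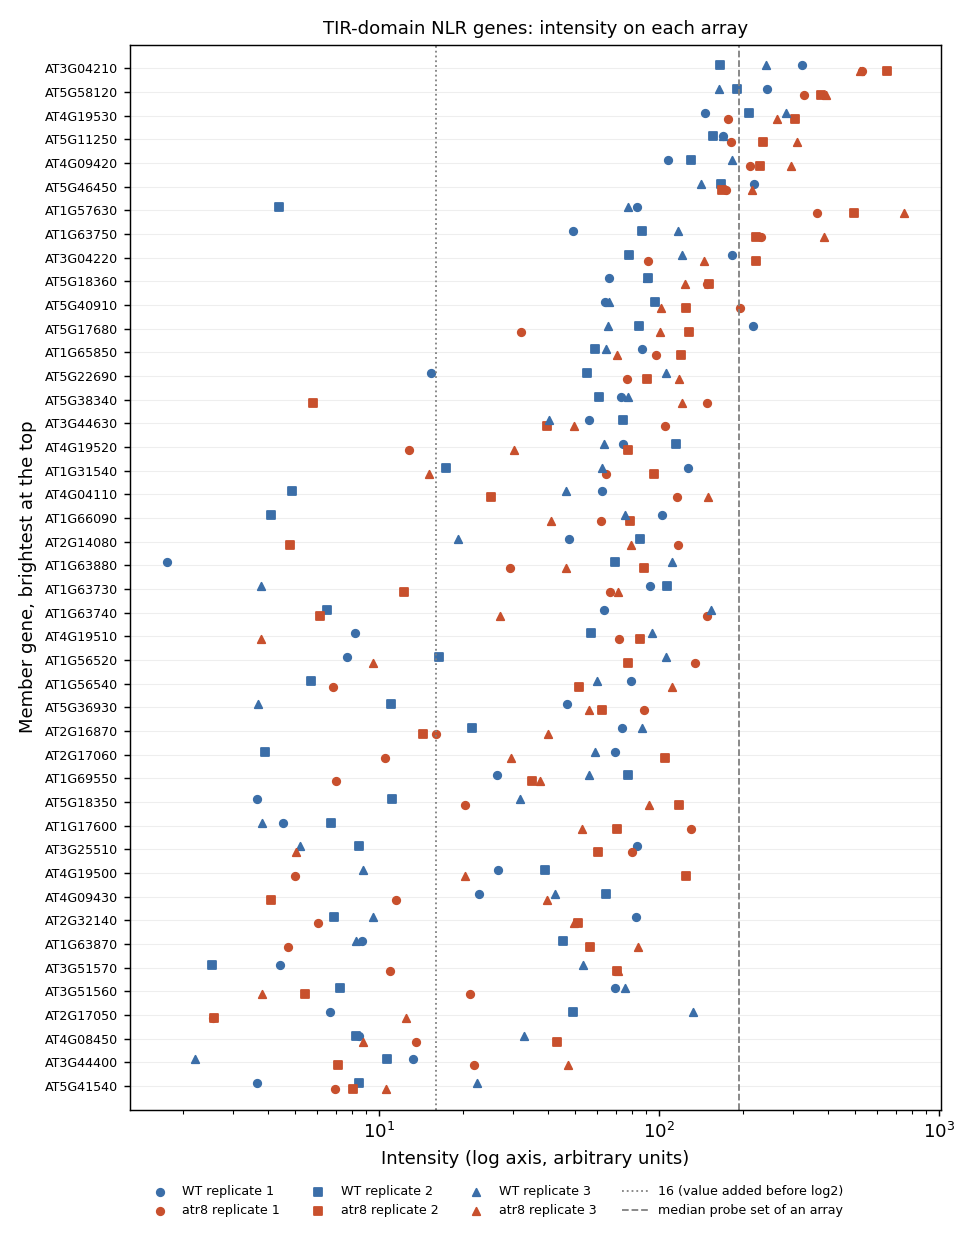
Intensity of each of the 44 members on each of the 6 arrays, on a log axis. Wild-type arrays are blue and mutant arrays orange, with a marker shape per replicate. The dotted line marks 16 and the dashed line the median probe set of an array. At the bottom the points of both genotypes scatter across the dotted line, and near the top AT3G04210, AT5G58120, AT1G57630 and AT1G63750 have all mutant points to the right of all wild-type points.

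Mutant and wild-type arrays were compared to ask how the transcripts of these receptors differ between the genotypes after stress and recovery. A single member, AT1G17600, rose in the mutant past the threshold, an adjusted p under 0.05 by limma over all probe sets. None fell past it. At an unadjusted p under 0.05 by limma there were 10 members, all of them higher, where 7.11% of all probe sets were higher at that level. The background was 0.712% of all probe sets called higher and 0.207% called lower, so 1 of 44 is a count too small to set apart from it. Differences are on the log2(intensity + 16) scale, which understates the change of dim genes. On that scale 31 of 44 members had a higher and 13 a lower estimate in the mutant, where 49.5% of all probe sets were higher. Their median difference was 0.24, against −0.01 over all probe sets.

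In 10 members all 3 mutant arrays lay above all 3 wild-type arrays, and in 0 members all 3 lay below. Over all probe sets 11.2% were placed above and 11.0% below in this way, 22.1% in either direction. The 10 are AT1G17600, AT1G57630, AT1G63750, AT3G04210, AT5G58120, AT5G18360, AT5G36930, AT4G09420, AT5G40910 and AT5G11250. Only the first of them passed the threshold, and adjusted p-values of the 10 ran from 0.0493 to 0.437 by limma.

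**Figure D2:**
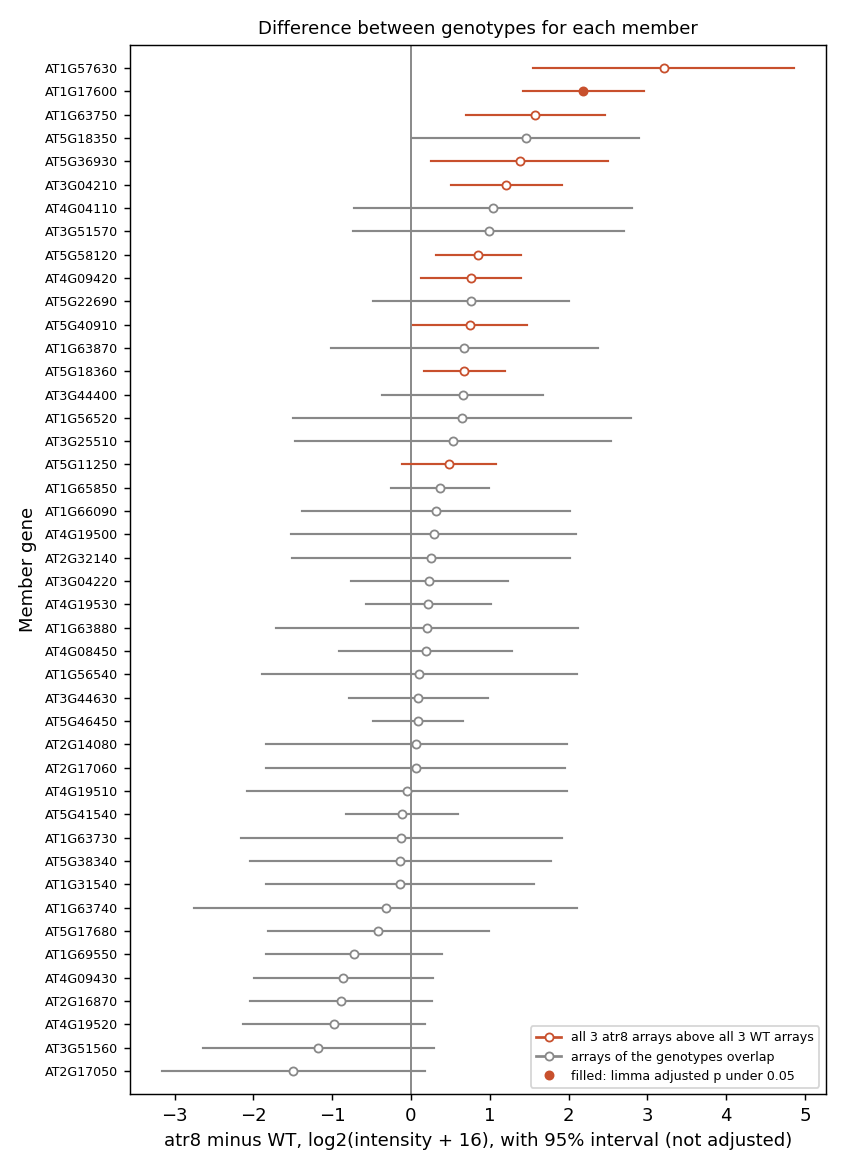
Difference between the genotypes for each member, mutant minus wild type on the log2(intensity + 16) scale, with the 95% interval of the limma fit, not adjusted for the number of probe sets. Orange marks the 10 members whose mutant arrays all lie above the wild-type arrays, grey the other 34, and the filled point the 1 member past the threshold. The orange estimates run from 0.48 to 3.21.

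AT1G17600 encodes a full-length receptor, known as SOC3, that is required for the autoimmunity of mutants in the shortened TIR gene CHS1 (AT1G17610) beside it. Its intensity was 4.53, 6.72 and 3.81 on wild-type replicates 1, 2 and 3, and 130, 70.9 and 52.9 on mutant replicates 1, 2 and 3. All wild-type values lay near the bottom of the scale, and the lowest mutant value was far above the highest of them. The difference was 2.19 ± 0.31 (log2, SE, 3 arrays for each genotype, adjusted p = 0.0493 by limma), which is 4.55-fold in intensity + 16. On mutant replicate 1 alone it was 2.79. Because the wild-type level is under the 16 added, the size depends on that choice, and it was 3.76 with 1 added and 1.07 with 64 added. The call is at the edge, since AT1G17600 ranked 201 of 209 called probe sets by p. It was lost with the replicate number as a block (adjusted p = 0.24), with 64 added (0.0715), with cyclic loess (0.0521) and with an intensity trend and robust prior (0.0776). It was also lost without any one array other than mutant replicate 1 (0.135 to 0.152) and on mutant replicate 1 alone (0.263), settings in which limma called 0 of all probe sets. Without any one array the difference itself was 1.88 to 2.42. The lowest adjusted p, 0.0346, came with array weights. AT1G17600 is among the dimmest 30% and was not tested where those were left out. Its partner CHS1 was among the loci not analysed here.

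The largest estimate belonged to AT1G57630, a short gene of 713 bases in the RefSeq annotation that encodes a TIR domain protein without the receptor's other parts. Intensities were 83.7, 4.38 and 77.4 on wild-type replicates 1, 2 and 3, and 366, 496 and 748 on mutant replicates 1, 2 and 3. Wild-type replicate 2 stood far below the other two, and every mutant array was above all of them. The difference was 3.21 ± 0.68 (log2, SE, n = 3 per genotype), or 9.23-fold in intensity + 16, with an adjusted p of 0.122 by limma. On mutant replicate 1 alone it was 2.73. Because 1 wild-type array is under the 16 added, the size depends on that choice. The difference was 3.97 with 1 added and 2.37 with 64 added. The threshold was passed with 64 added (0.0264), where it was the 1 member called beside a background of 1.48%, and with an intensity trend and robust prior (0.000394). Among alternatives on all 6 arrays the highest adjusted p was 0.28. Without 1 array the adjusted p by limma ran from 0.113 to 0.318. The difference then ran from 2.46, without wild-type replicate 2, to 3.60.

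AT1G63750 is a receptor gene that stands near AT1G63740 and AT1G63730. It read 49.3, 87.0 and 117 in the wild type against 232, 221 and 389 in the mutant, in the order of the replicates. The groups did not overlap. Its estimate was 1.58 ± 0.36 (log2, SE, n = 3 per genotype, adjusted p = 0.147 by limma), and 1.36 on mutant replicate 1 alone. Among alternatives on all 6 arrays its adjusted p ran from 0.0185, with an intensity trend and robust prior, to 0.255.

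The brightest member, AT3G04210, encodes TN13, a shortened protein with a TIR and a nucleotide-binding domain and no leucine-rich repeats. It read 323, 164 and 242 on the wild-type arrays and 529, 654 and 521 on the mutant arrays. The lowest mutant value exceeded the highest wild-type value by more than the spread among the mutant arrays. Its estimate was 1.21 ± 0.29 (log2, SE, n = 3 per genotype, adjusted p = 0.156 by limma), or 2.32-fold, and 1.12 on mutant replicate 1 alone. Its adjusted p ran from 0.00348, with an intensity trend and robust prior, to 0.353 among alternatives on all 6 arrays. Under that trend setting 3 members were called higher, AT1G57630, AT1G63750 and AT3G04210, beside a background of 3.57% of all probe sets.

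AT5G58120 encodes DM10, a receptor known from hybrid necrosis between Arabidopsis accessions. Its intensity was 242, 189 and 163 on the wild-type arrays, and 330, 380 and 395 on the mutant arrays. This was among the more even members in both groups, with means of 198 ± 40.2 and 368 ± 34.0 (SD, n = 3). The estimate of 0.86 ± 0.22 (log2, SE) had an adjusted p of 0.183 by limma, and mutant replicate 1 alone gave 0.71.

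AT5G18360 encodes BAR1, a receptor that recognises effectors of the bacterial HopB family. It read 66.4, 90.9 and 90.9 in the wild type and 149, 151 and 124 in the mutant, without overlap. The estimate was 0.68 ± 0.21 (log2, SE, n = 3 per genotype, adjusted p = 0.246 by limma), and 0.75 on mutant replicate 1 alone. Its neighbour AT5G18350 read 3.67, 11.2 and 31.8 in the wild type and 20.3, 117 and 92.4 in the mutant. There the lowest mutant array lay under the highest wild-type array, and the estimate of 1.46 ± 0.59 was 0.30 on mutant replicate 1 alone and 2.03 on replicates 2 and 3.

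AT5G36930, a receptor gene, read 46.8, 11.04 and 3.70 in the wild type and 88.2, 62.4 and 56.2 in the mutant. The wild-type arrays differed 12.6-fold among themselves, more than the genotypes did, and the estimate was 1.38 ± 0.46 (adjusted p = 0.274 by limma, n = 3 per genotype), with 1.69 on mutant replicate 1 alone. AT4G09420, a shortened gene of 2076 bases, read 108, 130 and 183 against 212, 229 and 297. AT5G40910 read 63.96, 96.9 and 66.2 against 195, 125 and 101. Both groups were close to touching in these 2 genes, with estimates of 0.76 ± 0.26 and 0.75 ± 0.30. These were 0.57 and 1.22 on mutant replicate 1 alone. AT5G11250, known as BURNOUT1 and described as a negative regulator of stress hormone responses, read 170, 156 and 169 in the wild type and 181, 235 and 310 in the mutant. Its wild-type arrays were nearly alike, while mutant replicate 1 lay just above them, at a difference of 0.13 against 0.48 ± 0.24 over all mutant arrays.

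**Figure D3:**
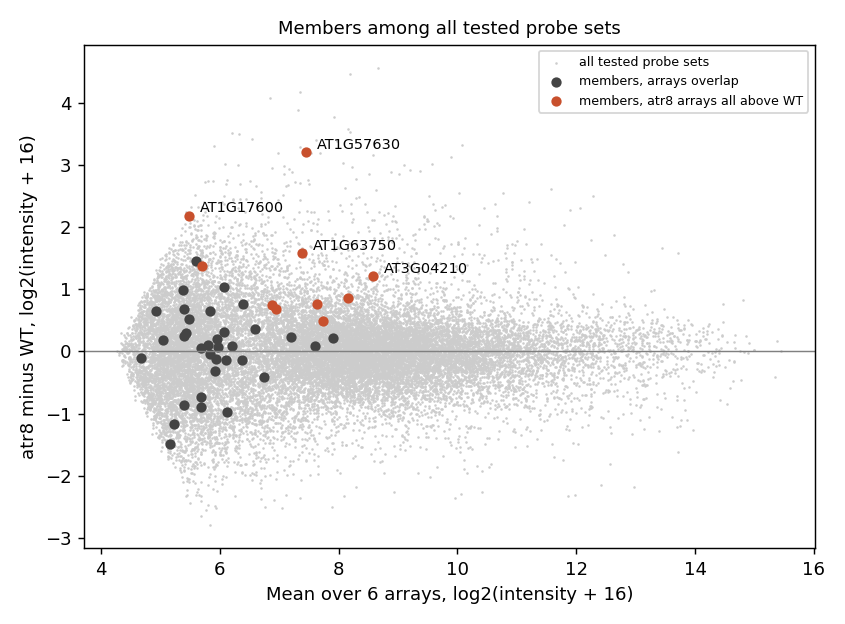
Difference between the genotypes against mean level for the 44 members and for all 22746 tested probe sets in grey, both axes in log2(intensity + 16). Members cluster at the dim end on the left. AT1G57630 at 3.21 and AT1G17600 at 2.19 lie in the upper part of the grey cloud at their level, and the lowest member stands at −1.49.

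Brighter and dimmer members were also counted apart. Leaving out the dimmest 30% of probe sets by mean level kept 16 members, of which 14 had a higher estimate, with a median of 0.58, and 8 had mutant arrays all above the wild type. Among all 15922 probe sets kept by this filter 49.4% had a higher estimate, the median was −0.01, and 13.9% had mutant arrays all above. The median over the 16 was 0.64 on mutant replicate 1 alone, with 13 of them higher. Over the 15922 it was −0.004 there, with 7904 higher. Brightness was the mean over both genotypes, so a rise itself helps a member to be kept, and these counts describe the members kept and are no support for a shift. Of the 28 members under the filter 17 had a higher estimate, with a median of 0.15. Among all 6824 probe sets under it 49.9% had a higher estimate, with a median of −0.004. On mutant replicate 1 alone 13 of the 28 were higher, with a median of −0.10. There 3105 of the 6824 were higher, with a median of −0.13, which is near the value of the 28. The median SE was 0.31 for the 16 and 0.69 for the 28, and an unadjusted p under 0.05 by limma was reached by 7 of the 16 and by 3 of the 28. Over all probe sets it was reached by 15.8% of those kept and by 9.94% of those under the filter, and 3 of 28 is near the latter.

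Of the 13 lower estimates 11 belonged to the 28 dim members. The lowest was that of AT2G17050, a receptor gene, at −1.49 ± 0.68 (log2, SE, n = 3 per genotype, adjusted p = 0.395 by limma). It read 6.65, 49.4 and 132 in the wild type and 2.55, 2.58 and 12.4 in the mutant. The wild-type arrays spanned 19.8-fold and the groups overlapped. Its estimate was −0.85 without wild-type replicate 3, where it was no longer the lowest, −2.20 without wild-type replicate 1, and −1.70 on mutant replicate 1 alone. AT3G51560 had −1.18 ± 0.60, from 69.5, 7.25 and 75.5 to 21.2, 5.42 and 3.83. AT4G19520 had −0.97 ± 0.47, from 74.5, 115 and 63.4 to 12.8, 77.6 and 30.2. Single arrays of one genotype fell within the range of the other in both genes. On mutant replicate 1 alone the estimates were −0.61 and −1.77. AT2G16870, AT4G09430 and AT1G69550 followed with −0.89, −0.86 and −0.73, with adjusted p-values of 0.457, 0.467 and 0.526 by limma. They stood at −1.13, −1.05 and −1.52 on mutant replicate 1 alone. Leaving out 1 array gave −1.82 to −0.83 for AT3G51560, −1.43 to −0.58 for AT4G19520, −1.34 to −0.61 for AT2G16870, −1.27 to −0.54 for AT4G09430 and −1.05 to −0.33 for AT1G69550. For AT4G19520 and AT1G69550 the value nearest 0 was the one without mutant replicate 1.

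Shortened members were taken as those with a gene under 3000 bases in the RefSeq annotation and numbered 7. Of these, 6 had a higher estimate and 3 did not overlap, AT1G57630, AT3G04210 and AT4G09420, with a median difference of 0.76. The other 4 were AT4G04110, AT1G66090, AT2G32140 and AT4G09430, whose arrays overlapped. Of the 37 longer genes 25 had a higher estimate and 7 did not overlap, with a median of 0.20. Over all probe sets 49.5% had a higher estimate, and mutant arrays lay all above the wild type in 11.2% and all below in 11.0%. The difference between the 7 and the 37 genes was not tested. Across the 44 members gene length and difference had a Pearson r of −0.30 and a Spearman rho of −0.14, a description over genes that share the same 6 arrays.

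Gene order showed 12 neighbouring pairs of members at most 2 genes apart, made of 21 members. The estimates of the pair had the same sign in 6 and opposite signs in 6. In the AT4G19500 cluster, which holds the downy mildew resistance genes RPP2A (AT4G19500) and RPP2B (AT4G19510), the estimates were 0.29, −0.05, −0.97 and 0.22 along the 4 genes up to AT4G19530. AT4G19530 was the brightest of them, with 146, 210 and 284 in the wild type and 177, 306 and 264 in the mutant, which overlap widely. Beside TN13, AT3G04220 read 182, 78.0 and 120 in the wild type and 90.9, 222 and 145 in the mutant, an estimate of 0.23 ± 0.41. Its arrays overlapped where those of its neighbour did not. Near AT1G63750, AT1G63740 and AT1G63730 had estimates of −0.32 ± 0.99 and −0.12 ± 0.84. AT3G51570, the neighbour of AT3G51560, had 0.99 ± 0.70, and AT2G17060, the neighbour of AT2G17050, 0.06 ± 0.78. The SE of AT1G63740, AT1G63730 and AT2G17060 exceeded the estimate.

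The dimmest members were AT5G41540, AT3G44400 and AT4G08450. AT5G41540 read 3.67, 8.51 and 22.3 in the wild type and 6.93, 8.08 and 10.6 in the mutant. AT3G44400 read 13.2, 10.6 and 2.20 against 21.8, 7.15 and 47.1, and AT4G08450 read 8.46, 8.25 and 33.0 against 13.5, 43.0 and 8.77. The arrays of the genotypes overlapped in all 3, and the estimates were −0.11 ± 0.29, 0.65 ± 0.42 and 0.19 ± 0.45.

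The remaining 16 members had overlapping arrays, estimates from −0.41 to 1.04 with 13 higher and 3 lower, and adjusted p-values from 0.554 to 0.977 by limma. AT5G46450 was the most even of them, with 219, 167 and 141 in the wild type and 174, 168 and 215 in the mutant. Its 95% interval, −0.48 to 0.66 on the log2 scale, covers changes in both directions. AT1G65850 read 86.8, 58.9 and 64.6 against 97.3, 120 and 70.6. AT3G44630 read 56.3, 74.0 and 40.3 against 105, 39.9 and 49.8. Both show mutant arrays on both sides of wild-type arrays.

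In several other members 1 array dropped far below the rest. AT5G38340 read 73.4, 60.8 and 77.8 in the wild type and 148, 5.81 and 120 in the mutant. AT1G66090, a shortened gene with a TIR and a nucleotide-binding domain, read 102, 4.12 and 75.6 against 62.0, 78.5 and 41.2. AT1G63880 read 1.75, 69.4 and 111 against 29.4, 88.2 and 46.5. In these 3 genes the drop was not shared by the other replicates of the genotype. Among the 44 members, 22 had wild-type arrays that differed by more than 5-fold. The other 10 members, AT5G22690, AT4G04110, AT1G63870, AT1G56520, AT5G17680, AT3G25510, AT2G32140, AT1G31540, AT1G56540 and AT2G14080, also had overlapping arrays, within the range of 1.75 to 219 that all 16 covered.

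**Figure D4:**
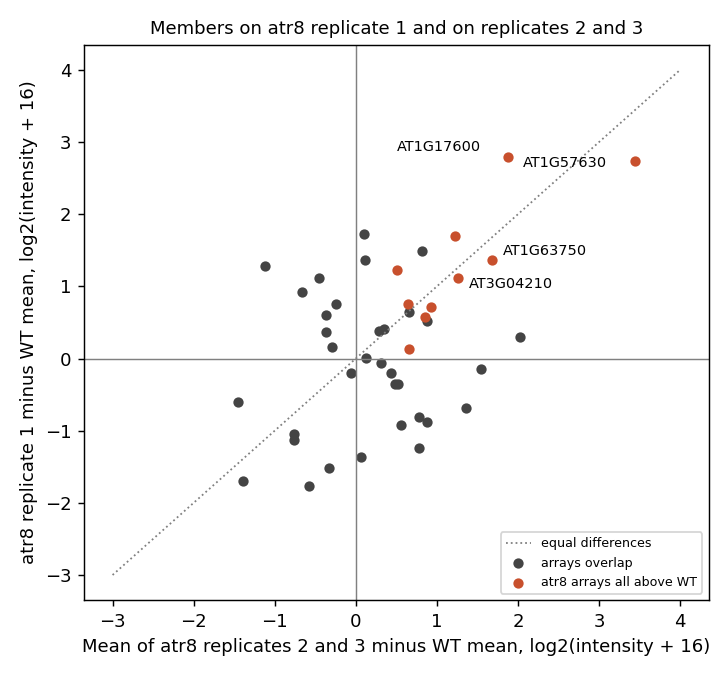
Difference from the wild-type mean on mutant replicate 1 (vertical) against that on mutant replicates 2 and 3 (horizontal) for the 44 members, both in log2(intensity + 16). Both axes share the wild-type arrays. The 10 members in orange were selected for lying above the wild type on all 3 mutant arrays, and on mutant replicate 1 they range from 0.13 to 2.79.

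The 3′ to 5′ ratio of mutant replicate 1 lay close to the wild type for actin. For ubiquitin it was 0.902, within the wild-type range of 0.717 to 1.02. For GAPDH it was 0.996, above the wild-type range of 0.794 to 0.844. On mutant replicate 1, 26 of 44 members stood above the wild-type mean, with a median of 0.34. Over all probe sets 11009 of 22746 did so, with a median of −0.02. Without that array 30 of 44 members were higher, with a median of 0.46. AT1G17600 was the member called without it, at 1.88 with an adjusted p of 0.0449 by limma, beside a background of 1.38%. Both comparisons use the same wild-type arrays.

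In the annotation used, few genes that act with these receptors were named alone by a probe set. That annotation does not list 8730 of the 22746 tested probe sets. Genes not measured below may thus be on the array without a name here. Of 9 genes listed for signalling downstream of TIR receptors 2 were measured and 0 passed the threshold. The background was 0.712% of all probe sets called higher and 0.207% called lower. SAG101, the EDS1 partner that works with NRG1 helpers, read 135, 106 and 259 in the wild type and 312, 347 and 248 in the mutant, with an estimate of 0.88 ± 0.35 (adjusted p = 0.348 by limma, n = 3 per genotype) and 0.93 on mutant replicate 1 alone. The second copy of EDS1 next to it in the genome, AT3G48080, was dim, at 4.82, 67.7 and 33.7 against 8.73, 1.17 and 35.1. Of 10 chaperones and regulators of NLR proteins only SGT1A was measured, a co-chaperone of HSP90. It read 622, 556 and 536 against 992, 750 and 625, which only just did not overlap, at 0.43 ± 0.24 (adjusted p = 0.467) and 0.78 on mutant replicate 1 alone. Of 17 genes of salicylic acid synthesis and immune output WRKY53 alone was measured. It rose from 228, 225 and 149 to 1530, 1593 and 1663 and was the 1 gene of these lists past the threshold (adjusted p = 0.0233 by limma, 3.2e-10 to 0.237 among alternatives on all 6 arrays, the highest with a replicate block). Its difference was 2.92 over all arrays and 2.86 on mutant replicate 1 alone. Without 1 array the difference ran from 2.73 to 3.01 and its adjusted p by limma from 0.0419 to 0.135. CSA1, a TIR receptor gene outside the 60, read 40.0, 46.7 and 47.9 against 11.95, 11.85 and 88.9.

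Other receptor groups are described beside the members, and differences between groups of genes were not tested. Of 46 listed coiled-coil NLR genes 23 were measured, 16 with a higher and 7 with a lower estimate and a median of 0.60. Of the 23, 3 were placed above and 3 below the wild type on all arrays, and 0 passed the threshold. Over all probe sets 11.2% were placed above and 11.0% below, and 0.712% were called higher and 0.207% called lower. Of 11 shortened TIR genes of the AT1G72 cluster 9 were measured, 7 with a higher and 2 with a lower estimate and a median of 0.68. Of the 9, 3 were placed above and 0 below the wild type on all arrays, and 1, AT1G72940, rose past the threshold. It read 301, 223 and 295 in the wild type and 1054, 993 and 926 in the mutant, a difference of 1.81 ± 0.21 (log2, SE, 3 arrays each, adjusted p = 0.0328 by limma) and 1.90 on mutant replicate 1 alone. The call was lost with a replicate block (0.237), the highest adjusted p among alternatives on all 6 arrays, of which the lowest was 1.31e-06. Without 1 array its adjusted p by limma ran from 0.0484 to 0.136, past the threshold in part, and its difference from 1.68 to 1.88.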

How the data were processed

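Total RNA of 3 wild-type and 3 atr8 arrays was made into biotinylated cRNA following Affymetrix, per the labels. The deposited values are intensities per probe set on a linear scale, and all 6 columns hold the same sorted values within 0.02, so the deposited table had been quantile normalized. How probes were summarized and corrected for background is not given in the sources used here. Control probe sets (64 of 22810) were left out. Probe sets were named from the platform annotation, of which 13436 with 1 gene matched RefSeq (TAIR10.1), used only for names, lengths and gene order. RefSeq sequences of the members were not used here.

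Values were tested as log2(intensity + 16) with limma 3.58.1 (lmFit, eBayes) in R 4.3.3, genotype as the only term, Benjamini-Hochberg over 22746 probe sets, threshold 0.05. The fit was also run on simulated independent normal values with the same SD in both genotypes. Such values lack the differences in array quality seen here, so that run cannot show how the fit performs on these arrays. P-values set each difference against the spread between the 3 arrays of a genotype, moderated by limma towards the spread over all probe sets. The number of arrays limits precision. Members and lists were chosen with earlier results of these data known. Differences are given for the 12 members with the smallest p, the 6 lowest, the 3 brightest, the 3 dimmest, those without overlap, and their neighbours. From each other list, members past the threshold or at most 4 with the smallest p were allowed. Alternatives were the replicate block, cyclic loess, median centring, 1 or 64 added, a filter on dim probe sets, an intensity trend with robust prior, array weights, each array left out, mutant replicate 1 alone, and averaging the probe sets that name 1 gene.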

Additional observations from a re-analysis of the deposited data

Results flagged for a closer look

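Some control probe sets, which were not tested, read above every wild-type array on mutant arrays. Actin had a 3′ to 5′ ratio of 28.9 and 19.6 on mutant replicates 2 and 3, with at most 2.66 in the wild type. For GAPDH it was 0.996 on mutant replicate 1, 1.75 on replicate 2 and 1.70 on replicate 3, where wild-type arrays gave 0.794 to 0.844. For ubiquitin it was 2.10 and 2.27 on replicates 2 and 3, where wild-type arrays gave 0.717 to 1.02. Their part in the members' differences was not tested.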

How the results depend on the processing

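Causes of the changes were not tested, except that fewer probe sets or arrays entered where some were left out. The limma count over all probe sets, 209, was 0 with a replicate block and on mutant replicate 1 alone, 99 with 1 added, 336 with 64 added, 359 without the dimmest 30%, 1459 with an intensity trend and robust prior, and 0 to 314 without 1 array. Members called higher, 1 in the main comparison, were 0 with the block, with cyclic loess, without the dimmest 30% and on mutant replicate 1 alone, 3 with the trend and robust prior, and 0 to 1 without 1 array. At an unadjusted p under 0.05 there were 14 of 44 members with the block (12.2% of all probe sets), 10 with cyclic loess (13.98%), 7 of 16 without the dimmest 30% (19.9%) and 4 on mutant replicate 1 alone (9.65%). Members called lower were 0 in every alternative run. The pathway count of 1 was 0 with the block and on mutant replicate 1 alone, and 0 to 1 without 1 array. Taken over all probe sets, same-numbered arrays did not deviate together (correlations of 0.0141, 0.0115 and 0.00455). Such correlations cannot show a batch shared by a part of the probe sets, and the labels do not state whether the numbers mark one batch. The median over members, 0.24, was 0.40 with 1 added and 0.15 with 64 added. It was 0.39 with array weights, 0.58 without the dimmest 30%, and 0.27 to 0.46 without 1 array. Members without overlap, 10 in all, were 12 to 15 without 1 array and 26 on mutant replicate 1 alone, where over all probe sets 29.6% to 38.99% and 56.5% did not overlap in either direction. Of the 28 members given with differences 18 kept their sign in every alternative run that tested them. Among these are the 10 without overlap, whose sign the choice itself fixes when arrays are left out. The sign of AT1G63730 turned with 1 added (0.15). On mutant replicate 1 alone the difference was −0.14 for AT3G51570, −0.21 for AT4G19530, −0.35 for AT3G04220, −0.060 for AT4G08450, −0.89 for AT4G19500, 1.28 for AT1G63740, 0.37 for AT1G63730, −0.93 for AT2G17060 and 0.60 for AT4G19510. Without 1 array it ran from −0.97 to 0.41 for AT1G63730, −1.12 to 0.35 for AT1G63740, −0.61 to 0.56 for AT2G17060, −0.056 to 0.52 for AT3G04220, −0.19 to 0.53 for AT4G08450, −0.49 to 0.88 for AT4G19500, −0.68 to 0.70 for AT4G19510, −0.0088 to 0.44 for AT4G19530 and −0.32 to 0.16 for AT5G41540. Averaging the probe sets that name 1 gene left the member values as they are, with 211 calls over all probe sets and an adjusted p of 0.0488 for AT1G17600. Low signal is one limit, with 31 of 44 members under an intensity of 16 on some array.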
